A study of Mus musculus with 20 samples.

Results

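The 9 genes described here build the adhesion of basal mammary cells to the basement membrane or mark those cells. They were taken from a fixed list and found by symbol in the deposited count tables, and all 9 were present among 45318 gene IDs and passed the filter on low counts, which left 18698 genes. Trp63 (p63) and Snai2 (Slug) are transcription factors of basal cells. Cdh3 (P-cadherin) joins basal and myoepithelial cells to each other. Itga6, Itgb4 and Itgb1 are integrin subunits. Lama3 and Lamb3 encode the α3 and β3 chains of laminin-332, and Col17a1 encodes collagen XVII, a transmembrane protein of the hemidesmosome.

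In the mammary gland, luminal cells are surrounded by a basal layer of myoepithelial and progenitor cells that rests on the basement membrane. Integrin α6β4 binds laminin-332 and is tied through plectin and the BPAG1 protein to keratin filaments, which forms hemidesmosomes. Integrin β1 pairs with several α chains, α3 and α6 among them, and signals through talin and focal adhesion adaptors. In epidermis, p63 is known as a regulator of keratin 5, keratin 14 and many adhesion genes.

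Polyadenylated RNA was sequenced from 20 FVB mouse mammary samples in 7 groups. PyMT organoids, from tumors of MMTV-PyMT mice, were represented by 3 libraries at day 6 of culture, by 2 libraries whose titles give no day but whose culture time is given as 6 days (undated), and by 3 libraries at day 0, when RNA was taken right after organoid preparation. PyMT tumor sections (n = 3) were 30 µm cryosections of MMTV-PyMT tumors. Neu-NDL organoids (n = 3) came from MMTV-Neu-NDL mice and were cultured for 6 days, and Neu-NT tumor sections (n = 3) came from MMTV-Cre;Flox-Neo-Neu-NT mice. The culture protocol in the labels names MMTV-PyMT tumors and is repeated for every sample. WT organoids (n = 3) came from the mammary gland of wild type mice and were cultured for 6 days. Organoids are epithelial fragments grown in matrigel with the growth factor FGF2. The MMTV promoter drives middle T antigen, Neu-NDL or Cre mainly in mammary epithelium, and no group holds freshly isolated normal gland. The labels do not say whether replicates were separate animals, so a p-value here reflects only how much these libraries vary, which may be technical variation.

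Libraries held 17478357 to 48341438 reads counted on genes. Values are CPM (counts scaled to library size after TMM normalization), and a gene is called where edgeR's quasi-likelihood test over all 20 libraries gave a Benjamini-Hochberg adjusted p under 0.05. The library labelled PyMT organoids day 6 replicate 3 stood apart from its group. Its closest library over 18698 genes was PyMT tumor section replicate 3 (Pearson's r of log2 CPM 0.991, the highest of 190 library pairs), against 0.868 to 0.906 with the other day 6 libraries. WT libraries correlated with each other at 0.985 to 0.989. This library thus goes against its label, and whether the label is right was not tested. Every day 6 and cultured PyMT mean, and every fold change with all libraries that uses them, includes it. Neu-NT tumor section replicate 3 correlated with its own group at 0.904 to 0.909 and was closest to PyMT tumor section replicate 1 (0.926). These correlations are across genes, which are not independent replicates. Luminal markers were detected in every library, with Pgr at 0 in Neu-NT section replicate 2. Members and list counts are given with all libraries and without these 2 (18591 genes tested).

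Promoter windows from RefSeq (GRCm38.p6, 250 bases before to 50 after a start) were used for 3 of 9 members, Itgb1, Lamb3 and Col17a1. Windows of the other members, Lama3 among them, are not reported here, which does not show that they have none. No measure of spread was used to pick these 3. Lamb3 and Col17a1 varied widely between libraries and Itgb1 did not, but Trp63, Snai2 and Cdh3, which also varied widely, have no window shown. Each window was searched on both strands for the E-box CACCTG, which Snail family factors such as Snai2 bind, and for the p53 family half-site, which p63 can bind. Capitals mark matches. Lamb3 has 2 windows, and the one shown is chr1:193301993-193302292, plus strand. The Col17a1 window is chr19:47691993-47692292, minus strand, and that of Itgb1 is chr8:128685404-128685703, plus strand.
Lamb3: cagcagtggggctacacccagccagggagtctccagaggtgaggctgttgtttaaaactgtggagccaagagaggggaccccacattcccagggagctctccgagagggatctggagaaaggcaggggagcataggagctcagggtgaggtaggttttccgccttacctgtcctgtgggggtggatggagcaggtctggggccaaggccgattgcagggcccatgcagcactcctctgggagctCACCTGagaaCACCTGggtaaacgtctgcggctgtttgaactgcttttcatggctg
Col17a1: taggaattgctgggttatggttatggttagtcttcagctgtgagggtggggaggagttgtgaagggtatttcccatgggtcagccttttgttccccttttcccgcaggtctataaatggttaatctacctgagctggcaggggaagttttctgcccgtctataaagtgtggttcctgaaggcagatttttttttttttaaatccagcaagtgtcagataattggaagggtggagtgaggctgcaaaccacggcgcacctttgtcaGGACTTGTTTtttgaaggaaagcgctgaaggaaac
Itgb1: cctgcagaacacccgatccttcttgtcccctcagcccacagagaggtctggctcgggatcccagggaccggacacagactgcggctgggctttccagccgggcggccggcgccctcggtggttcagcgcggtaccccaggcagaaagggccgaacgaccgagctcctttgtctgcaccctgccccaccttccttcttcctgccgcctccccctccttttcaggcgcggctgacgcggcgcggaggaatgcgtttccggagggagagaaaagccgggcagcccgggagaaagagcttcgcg
The Lamb3 window held 2 E-boxes, at -6 and 4 bases from its start site. The E-box occurred in 20.2% of all 32851 RefSeq windows. Col17a1 held 1 p53 family half-site, 15 bases after its start, a motif found in 8.36% of windows. The Itgb1 window and the other Lamb3 window held neither motif. The motifs do not overlap, and a match is a description of these letters in the reference strain and not of binding in FVB cells.

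**Figure D1:**
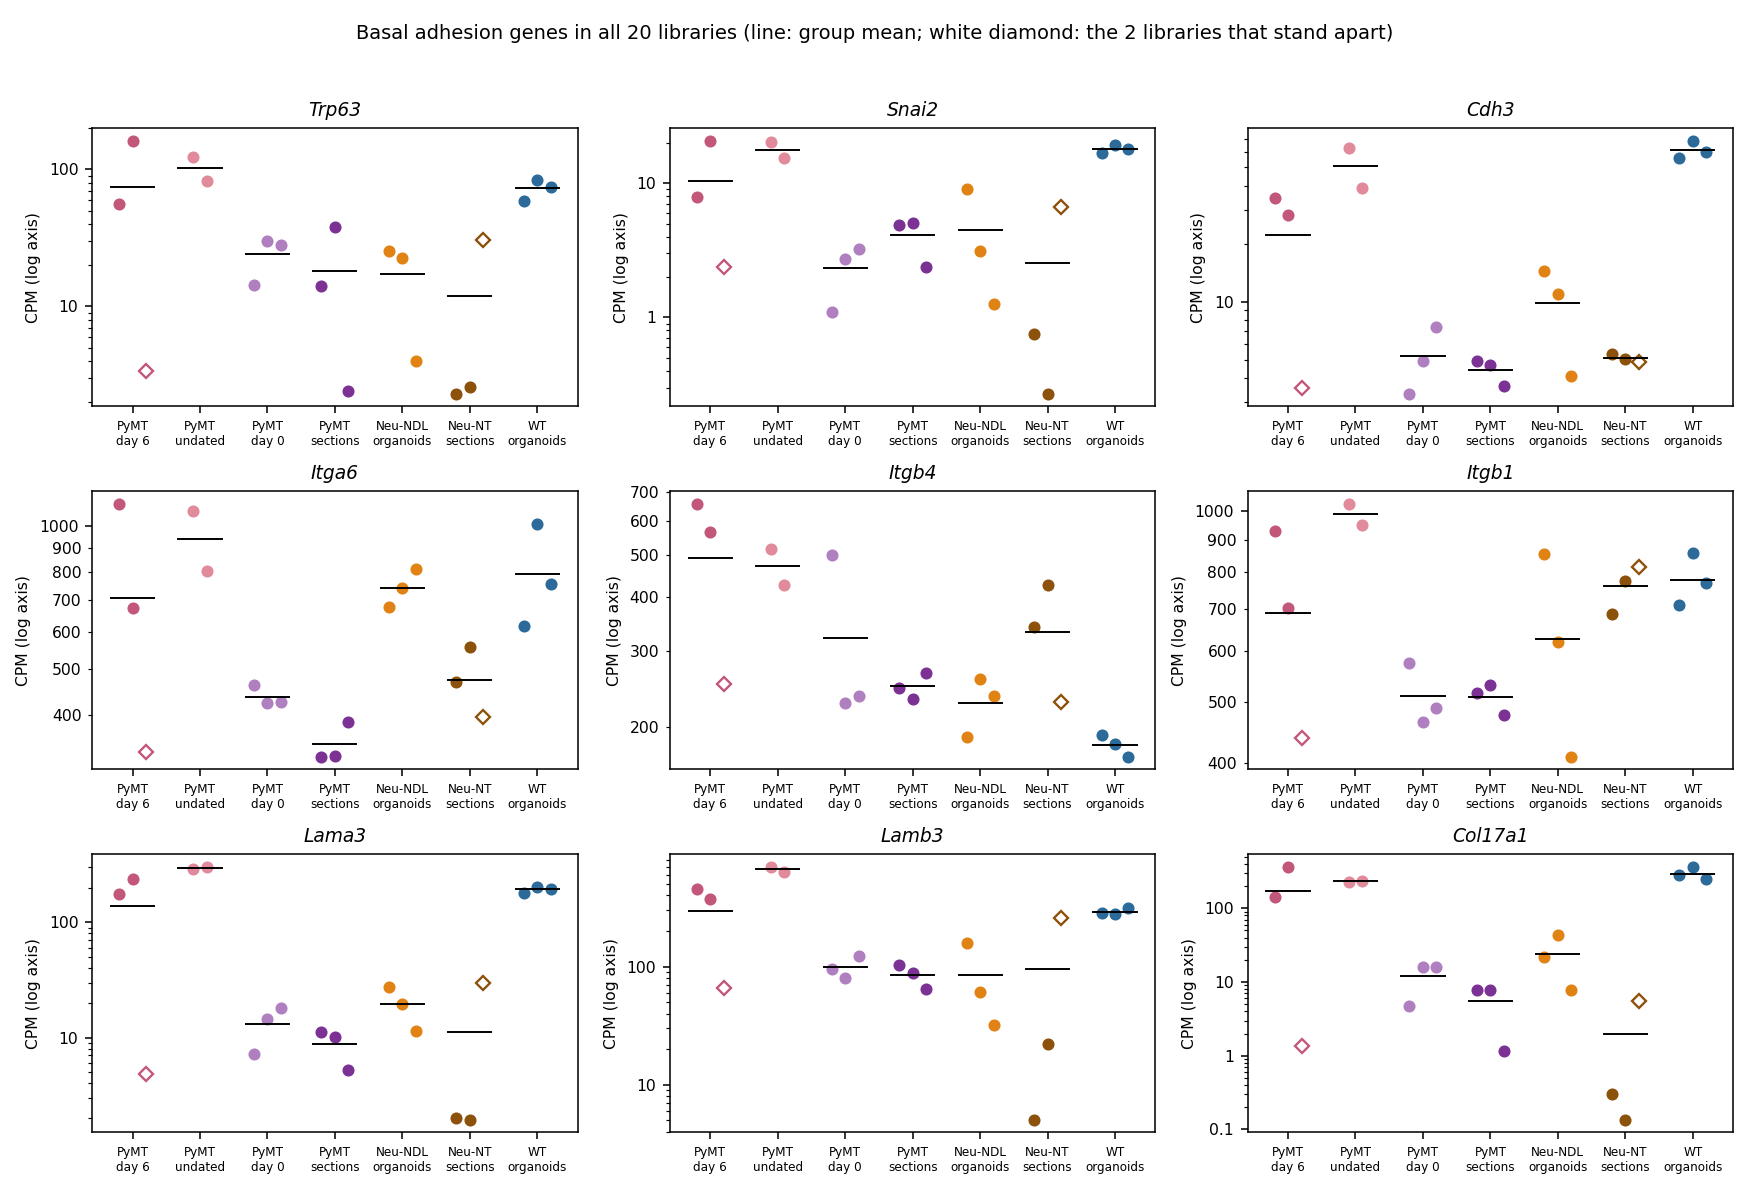
CPM on a log axis of each of the 9 genes in all 20 libraries, by group, with a line at each group mean. The 3 integrin genes span 2.51-fold to 3.86-fold over all libraries, the other 6 span 20.6-fold to 2716-fold, and the library labelled day 6 replicate 3 (white diamond) is the lowest of the 5 cultured PyMT libraries for all 9.

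The members lie on 7 chromosomes in GENCODE M21 (GRCm38). Trp63 spans chr16:25683763-25892102 and Snai2 chr16:14705852-14709385, both on the plus strand. Cdh3 spans chr8:106510891-106557297 and Itgb1 chr8:128685654-128733200, both plus. Itga6 lies at chr2:71745616-71858416 (plus), Itgb4 at chr11:115974709-116008412 (plus), Lama3 at chr18:12333819-12583013 (plus), Lamb3 at chr1:193207699-193343878 (plus) and Col17a1 at chr19:47646344-47692094 (minus). All 9 are protein coding. Itgb4 shares 537 exon bases with the opposite-strand lincRNA B230344G16Rik, and Lama3 shares 197 with the antisense gene Gm29200. Whether counting used strand is not given in the sources used here, so reads there cannot be assigned to 1 gene.

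The members fell into a group that varied widely and a group that did not. Between the lowest and the highest library, Itgb1 differed 2.51-fold, Itga6 3.40-fold and Itgb4 3.86-fold. Cdh3 differed 20.6-fold, Trp63 70.4-fold, Snai2 77.1-fold, Lamb3 138-fold, Lama3 157-fold and Col17a1 2716-fold. The SD of log2 CPM placed Col17a1 at the 99.8th percentile of all genes tested, Lama3 at the 98.5th, Trp63 at the 95.6th, Itgb4 at the 50.8th, Itga6 at the 49.4th and Itgb1 at the 33.0th. In each of the 9 genes the highest library was a WT organoid library (Cdh3) or a cultured PyMT organoid library (the other 8). The lowest was a Neu-NT tumor section for Trp63, Snai2, Lama3, Lamb3 and Col17a1.

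Trp63 had 55.8, 162 and 3.38 CPM in PyMT organoids at day 6, 123 and 82.0 in undated PyMT organoids, 14.3, 30.0 and 27.9 in PyMT organoids at day 0, and 14.0, 37.9 and 2.42 in PyMT tumor sections. It had 25.2, 22.5 and 4.02 CPM in Neu-NDL organoids and 2.31, 2.57 and 30.5 in Neu-NT tumor sections, against 59.0, 84.1 and 74.7 in WT organoids. Apart from the library labelled day 6 replicate 3, the cultured PyMT libraries lay at or above the WT range or just under it, and no library of the day 0, section or Neu groups reached that range. By group mean, the order ran from undated PyMT (103), day 6 PyMT (73.8) and WT organoids (72.6), which overlapped, to day 0 PyMT (24.1), PyMT sections (18.1), Neu-NDL (17.2) and Neu-NT (11.8), which overlapped among themselves.

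Snai2 had 7.87, 20.8 and 2.37 CPM in PyMT organoids at day 6, 20.2 and 15.5 in undated, 1.09, 2.73 and 3.23 at day 0, and 4.89, 5.02 and 2.38 in PyMT sections. Neu-NDL organoids had 9.06, 3.15 and 1.25 CPM and Neu-NT sections 0.756, 0.270 and 6.63, against 16.7, 19.4 and 17.9 in WT organoids. The WT range overlapped only with the cultured PyMT groups. In Neu-NT sections replicates 1 and 2 the values rest on 20 and 6 reads.

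Cdh3 had 34.4, 28.1 and 3.57 CPM in PyMT organoids at day 6, 62.9 and 38.7 in undated, 3.33, 4.90 and 7.42 at day 0, and 4.94, 4.67 and 3.64 in PyMT sections. Neu-NDL organoids had 14.5, 11.0 and 4.11 CPM and Neu-NT sections 5.33, 5.05 and 4.87, against 55.7, 68.5 and 59.6 in WT organoids. The undated and WT libraries overlapped, and every day 0, section and Neu library was at 14.5 CPM or less. Unlike Trp63, Snai2, Lama3 and Lamb3, Cdh3 was not higher in Neu-NT section replicate 3 than in the other 2 Neu-NT sections.

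Of the integrin subunits, Itgb4 was the only member whose lowest group mean was that of the WT organoids. It had 659, 565 and 252 CPM in PyMT organoids at day 6, 518 and 428 in undated, 501, 228 and 237 at day 0, and 247, 232 and 267 in PyMT sections, and it had 189, 258 and 236 in Neu-NDL organoids and 340, 426 and 229 in Neu-NT sections, against 192, 183 and 171 in WT organoids. Only Neu-NDL replicate 1 lay within the WT range. Itga6, its partner subunit, had 1113, 671 and 336 CPM in PyMT organoids at day 6, 1076 and 804 in undated, 463, 425 and 426 at day 0 and 328, 328 and 387 in PyMT sections. Neu-NDL organoids had 675, 739 and 811 CPM of Itga6 and Neu-NT sections 470, 558 and 397, against 615, 1007 and 754 in WT organoids. Every day 0 and section library lay below the WT range, and the 3 Neu-NDL libraries lay within it. Of the cultured PyMT libraries, 2 lay above the WT range (day 6 replicate 1 and undated replicate 1), 2 within it and 1 below it, the library labelled day 6 replicate 3.

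Itgb1 had 930, 703 and 438 CPM in PyMT organoids at day 6, 1026 and 951 in undated, 576, 465 and 489 at day 0 and 517, 531 and 477 in PyMT sections. It had 854, 621 and 410 CPM in Neu-NDL organoids and 687, 775 and 816 in Neu-NT sections, against 710, 858 and 769 in WT organoids. Per kb of exon, which allows levels of different genes to be compared, Itgb1 was the most abundant of the 3 subunits in every group mean. In WT organoids it averaged 191 ± 18.3 CPM per kb, Itga6 87.7 ± 22.0 and Itgb4 25.9 ± 1.51 (SD, n = 3).

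Because α6 pairs with β4 or β1, the ratio of Itga6 to Itgb4 per kb was read in each library. It was 1.31, 0.922 and 1.03 in PyMT organoids at day 6, 1.61 and 1.46 in undated, 0.719, 1.45 and 1.40 at day 0 and 1.03, 1.10 and 1.13 in PyMT sections. It was 2.78, 2.22 and 2.67 in Neu-NDL organoids and 1.07, 1.02 and 1.35 in Neu-NT sections, against 2.49, 4.29 and 3.43 in WT organoids. All 11 PyMT and 3 Neu-NT libraries were below every WT library, the library labelled day 6 replicate 3 included, and Neu-NDL organoids overlapped the WT range.

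Lama3 had 174, 239 and 4.85 CPM in PyMT organoids at day 6, 289 and 303 in undated, 7.17, 14.5 and 17.9 at day 0, and 11.2, 10.2 and 5.23 in PyMT sections. Neu-NDL organoids had 27.3, 19.5 and 11.3 CPM and Neu-NT sections 2.004, 1.94 and 29.8, against 181, 203 and 194 in WT organoids. A gap separated libraries at 174 CPM or more (WT and 4 cultured PyMT) from all others, which were at 29.8 CPM or less. Lamb3 had 449, 372 and 65.8 CPM in PyMT organoids at day 6, 699 and 627 in undated, 95.1, 79.4 and 122 at day 0, and 103, 87.4 and 64.4 in PyMT sections. Its values were 160, 61.2 and 31.9 CPM in Neu-NDL organoids and 5.07, 22.1 and 259 in Neu-NT sections, against 281, 277 and 312 in WT organoids. In Neu-NT section replicate 3 Lamb3 came near the WT range, while Lama3 did not.

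Col17a1, which anchors basal cells next to α6β4, had the widest range. It had 145, 367 and 1.36 CPM in PyMT organoids at day 6, 229 and 237 in undated, 4.73, 15.9 and 15.9 at day 0, and 7.72, 7.79 and 1.15 in PyMT sections. It had 21.6, 42.9 and 7.77 CPM in Neu-NDL organoids and 0.302, 0.135 and 5.49 in Neu-NT sections, against 281, 359 and 248 in WT organoids. The first 2 Neu-NT values rest on 8 and 3 reads. As with Lama3, the day 0, section and Neu libraries lay below every WT library with no overlap.

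**Figure D2:**
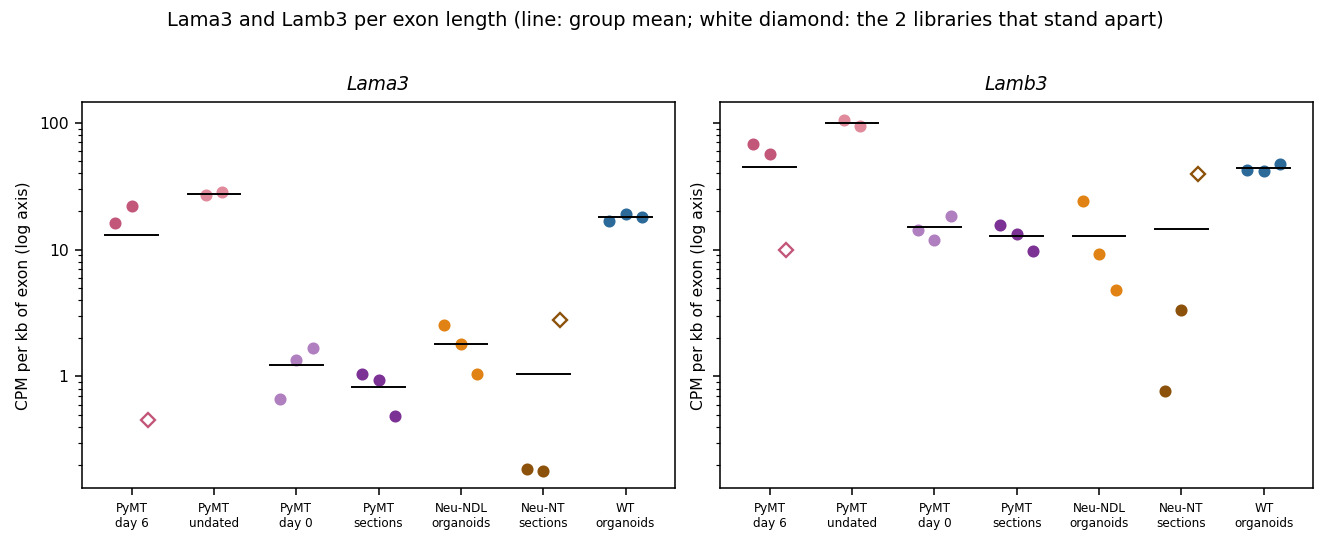
CPM per kb of exon on a log axis for Lama3 and Lamb3 in all 20 libraries, with a line at each group mean. In Neu-NT sections replicates 1 and 2 both genes lie far below the WT organoids, and in replicate 3 (white diamond) Lamb3 is near the WT level while Lama3 is not.

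Per kb of exon, the ratio of Lama3 to Lamb3 was 0.239, 0.395 and 0.0454 in PyMT organoids at day 6, 0.255 and 0.297 in undated, 0.0464, 0.112 and 0.0903 at day 0, and 0.0667 and 0.0715 in PyMT sections replicates 1 and 2, with a lower value in replicate 3. It was 0.105, 0.196 and 0.219 in Neu-NDL organoids and 0.243, 0.0540 and 0.0707 in Neu-NT sections, against 0.395, 0.451 and 0.383 in WT organoids. Lama3 was below Lamb3 per kb in every library, and day 6 replicate 2 was the only tumor library whose ratio lay within the WT range.

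The first comparison set PyMT organoids after 6 days of culture (day 6 and undated, averaged with equal weight) over WT organoids of the same culture time. Itgb4 rose 2.65-fold, and its 5 PyMT libraries lay between 252 and 659 CPM, above the 171 to 192 CPM of WT organoids. On the log2 scale this was 1.41 (SE 0.32, edgeR adjusted p = 0.0251). It was the only member called, where 1.40% of all genes tested were called higher and 2.49% lower. It was also the only member whose libraries did not overlap with WT, against 6.36% of genes higher and 9.87% lower without overlap. The call held without the 2 libraries that stand apart (log2 fold change 1.60, SE 0.25, adjusted p = 0.00141), where 7.48% of genes were called higher and 9.04% lower. It was lost without WT replicate 1, 2 or 3 or without undated replicate 1, with adjusted p up to 0.109, with the undated libraries alone (adjusted p = 0.102), and when only the libraries compared were fitted (0.0579).

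The other 8 members were not called with or without the 2 libraries that stand apart. Without those 2, the log2 differences were 0.58 (SE 0.70) for Trp63, -0.13 (0.56) for Snai2, -0.59 (0.33) for Cdh3, 0.24 (0.20) for Itga6, 0.24 (0.20) for Itgb1, 0.40 (0.32) for Lama3, 0.88 (0.48) for Lamb3 and -0.24 (0.60) for Col17a1. With all libraries the 95% interval of the Trp63 difference ran from -1.93 to 2.45 and that of Lama3 from -1.83 to 1.98. These widths do not show equal levels. The median log2 fold change of the members was 0.08, against 0.01 over all genes tested.

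Among the 20 laminin, hemidesmosome and basement membrane partners, 2 fell and none rose with all libraries. They were Lama1, the α1 laminin chain (log2 fold change -1.96, adjusted p = 0.00348), and Lamc3, the γ3 chain (-3.61, adjusted p = 0.0281). Of 13 other integrin subunits 1 rose, Itga3, whose product pairs with β1 and binds laminin-332. Itga3 had 345, 308 and 75.9 CPM at day 6 and 382 and 429 in undated organoids, against 94.97, 96.3 and 98.1 CPM in WT organoids. Only the library labelled day 6 replicate 3 fell outside the separation, and on the log2 scale Itga3 rose by 1.70 (SE 0.40, adjusted p = 0.0297, or 1.95 and 0.000149 without the 2 libraries). Plec, which encodes plectin, changed by 0.82 (adjusted p = 0.127) and Dst, which encodes BPAG1, by -0.13 (adjusted p = 0.899). With all libraries none of 11 tested integrin adaptors or of 8 cadherins and catenins was called. Of 11 p53 family and p63-linked epidermal genes only Itga3, which is in that list too, rose, and Krt5 (-0.29, adjusted p = 0.935) and Krt14 (0.72, adjusted p = 0.850) were not called. That list, called p63-linked below, also holds Trp53 and Trp73 of the p53 family. It shares Fermt1 with the adaptors and Dst with the partners. In the fit without the 2 libraries, partners fell in 5 of 20 and rose in 5, integrins fell in 2 of 13 and rose in 2, adaptors fell in 1 of 11 and rose in 3, cadherins and catenins fell in 2 of 8 and rose in 4, and p63-linked genes rose in 1 of 11.

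Of the 12 myoepithelial and basal markers, 6 were lower and none higher. The lower ones were Acta2, Tagln, Myh11, Cnn1, Mylk and Oxtr. The keratins Krt5, Krt14 and Krt17 (log2 fold change 0.75) were not called, nor were Egfr, Mme and Vim. Acta2, which encodes smooth muscle actin, had 18.3, 14.0 and 25.5 CPM at day 6 and 41.4 and 19.2 in undated organoids, against 692, 477 and 668 in WT organoids (log2 fold change -4.66, SE 0.55, adjusted p = 0.000999). The summed CPM of that list was 810 to 7445 in the 5 PyMT libraries and 3157 to 3776 in WT libraries, with no marker at 0. Fibroblast markers (0 of 8 called) summed to 2750 CPM in the library labelled day 6 replicate 3 and 52.0 to 158 in the other 4, against 450 to 823 in WT libraries. Luminal markers (2 of 13 lower, none higher) summed to 4919 to 24451 CPM in PyMT organoids and 8079 to 9497 in WT organoids. Csn3, a casein gene in that list, averaged 5808 CPM at day 6, 2630 in undated and 1531 in WT organoids. Macrophage markers (0 of 6) summed to 81.3 to 203 and 105 to 149 CPM, endothelial markers (0 of 6) to 4.94 to 147 and 10.3 to 53.2 CPM and keratinocyte markers (0 of 6) to 9.74 to 1927 and 290 to 360 CPM in PyMT and WT organoids. Adipocyte (0 of 5) and skeletal muscle markers (0 of 5) were at most 62.0 and 7.75 CPM in PyMT organoids, against 22.4 and 198 CPM in WT organoids. Among the defining markers, Tek was at 0 in undated replicate 1, Cx3cr1 in day 6 replicate 1, and Adipoq in 4 of the 5 PyMT libraries. The marker counts differed without the 2 libraries, where fibroblast markers fell in 5 of 8, endothelial in 5 of 6, luminal in 6 of 13 (1 rose), macrophage in 2 of 6 (1 rose), adipocyte in 2 of 5 and keratinocyte in 1 of 6, basal markers again fell in 6 of 12, and skeletal muscle markers had no call. In bulk samples, fewer cells of a type and less RNA per cell cannot be told apart, here and below, and the part of these other cell types in the results was not tested.

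**Figure D3:**
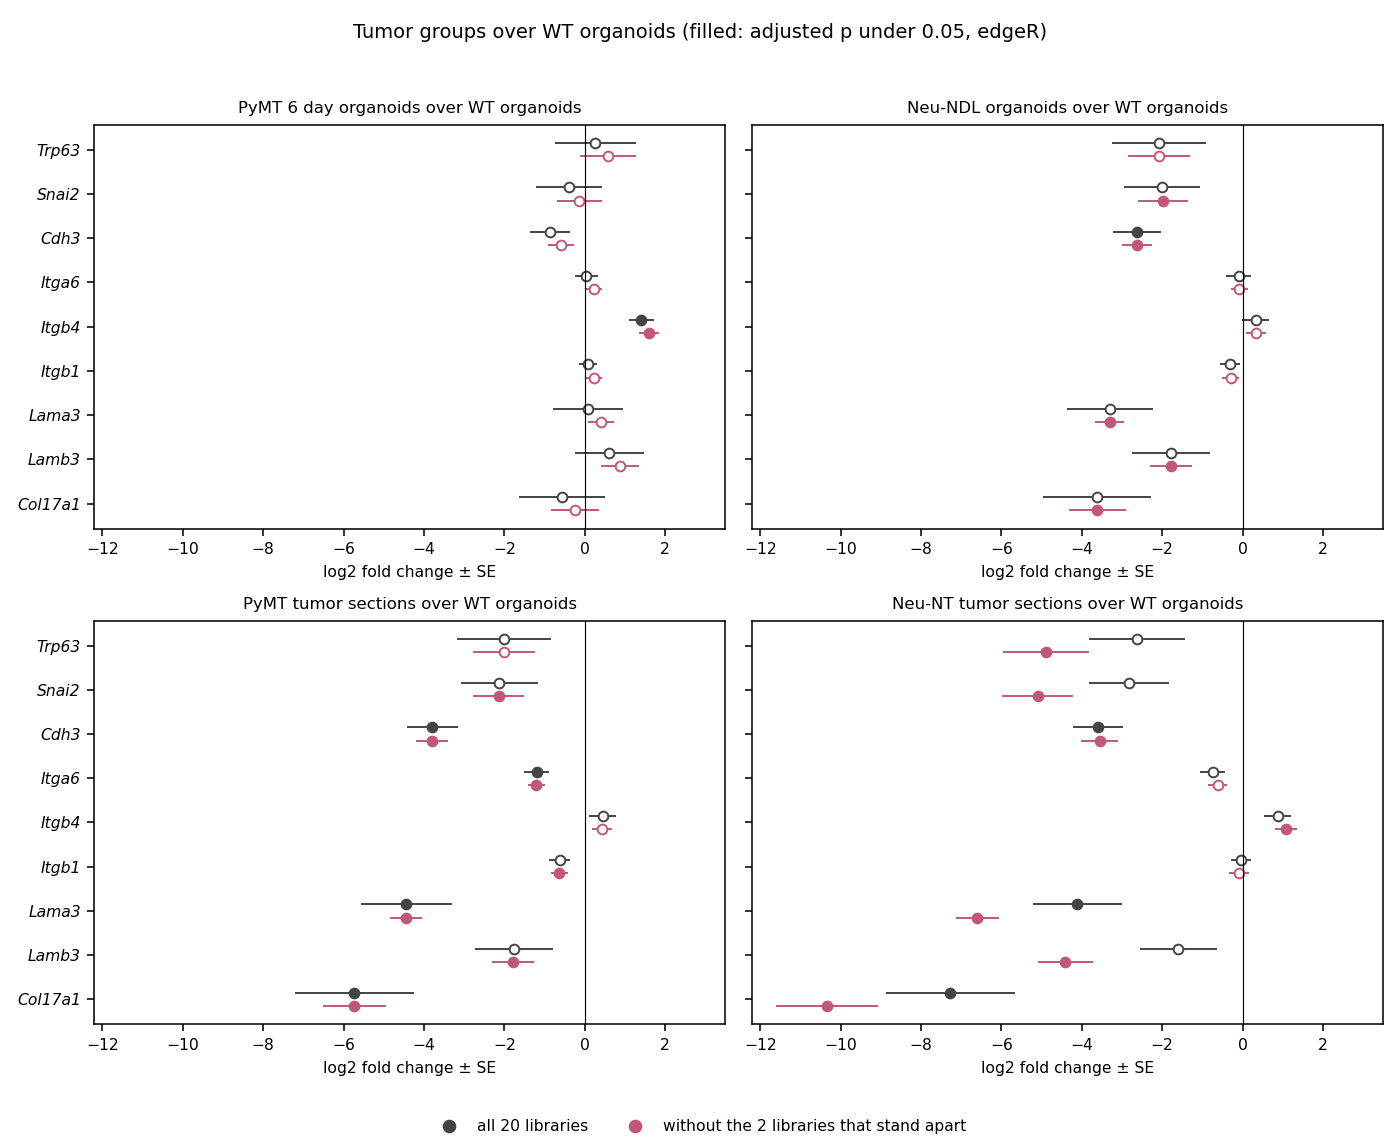
Log2 fold changes with their SE for the 9 genes in 4 tumor groups over WT organoids, with all 20 libraries (grey) and without the 2 libraries that stand apart (pink), filled where the adjusted p is under 0.05. Cultured PyMT organoids differ from WT in Itgb4, while in Neu-NDL organoids and in both kinds of section Cdh3, Lama3 and Col17a1 lie between -2.63 and -7.27 with all libraries.

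Neu-NDL organoids were set over WT organoids at the same culture time. Cdh3 fell 6.21-fold (log2 fold change -2.63, SE 0.59, adjusted p = 0.0231), with 14.5, 11.0 and 4.11 CPM in Neu-NDL organoids, against 55.7, 68.5 and 59.6 CPM in WT organoids. It was the only member called, where 2.06% of genes were called lower and 2.47% higher, and 6 members lay below WT without overlap (Trp63, Snai2, Cdh3, Lama3, Lamb3 and Col17a1), against 19.2% of all genes (17.0% lay higher). Lama3 was at -3.31 (SE 1.07, adjusted p = 0.0850) and Col17a1 at -3.62 (SE 1.34, adjusted p = 0.129). Without the 2 libraries that stand apart, which belong to neither group and enter only through the shared filter, scaling and spread, 5 members were lower (Snai2, Cdh3, Lama3, Lamb3 and Col17a1), where 6.12% of genes were called lower and 8.40% higher. Lama3 then had an adjusted p of 0.000244 and Col17a1 one of 0.00493. The Cdh3 call was lost without any WT library or Neu-NDL replicate 2 or 3 (adjusted p up to 0.0978). No integrin member was called in either fit, with Itga6 at -0.09 (95% interval -0.76 to 0.57), Itgb4 at 0.33 (-0.40 to 1.05) and Itgb1 at -0.31 (-0.86 to 0.24).

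The median log2 fold change of the members was -2.00, against 0.02 for all genes. Of the 20 partners 2 fell and none rose. They were Lama1 (-2.67, adjusted p = 0.00295) and Bcam, a receptor for laminin α5 (-1.65, adjusted p = 0.0131). Plec differed by 0.43 (adjusted p = 0.481) and Dst by 1.07 (0.185). Itga2, the α subunit of a collagen receptor, was the 1 of 13 other integrins called, and it fell (-2.43, adjusted p = 0.0355). Itga3 differed by 0.00. Fermt2, the integrin activator kindlin-2, was the 1 of 11 adaptors called and rose (0.85, adjusted p = 0.0402). No cadherin or catenin of 8 was called. None of the 11 p63-linked genes was called with all libraries, with Krt5 at -3.28 (adjusted p = 0.275) and Krt14 at -2.58 (0.471), and 6 were lower and none higher without the 2 libraries. That fit also called 3 of 20 partners lower and 2 higher, 1 of 13 integrins lower, 1 of 11 adaptors lower and 2 higher, and no cadherin or catenin.

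Lower values were called for 5 of 12 basal and myoepithelial markers, with no rise, and their summed CPM was 584 to 1407 in Neu-NDL organoids and 3157 to 3776 in WT organoids. Acta2 fell by 3.96 on the log2 scale (adjusted p = 0.00670). Macrophage markers rose in 3 of 6 (summed CPM 146 to 437 in Neu-NDL and 105 to 149 in WT), luminal markers fell in 2 of 13 (9755 to 16571 and 8079 to 9497), and fibroblast markers were not called (2898 in replicate 1 and 155 and 195 in the others, against 450 to 823 in WT). By group mean, Csn3 was the largest part of the Neu-NDL luminal sum, at 8579 CPM, against 1531 CPM in WT organoids. Endothelial, adipocyte, skeletal muscle and keratinocyte markers had no call, with summed CPM of 5.32 to 42.9, 3.09 to 14.8, 1.80 to 144 and 16.4 to 210 in Neu-NDL organoids, against 10.3 to 53.2, 8.52 to 22.4, 43.9 to 198 and 290 to 360 in WT organoids. Lep was at 0 in Neu-NDL replicates 2 and 3 and Cidec in replicate 2. When the 2 libraries were left out, basal markers fell in 8 of 12, luminal in 4 of 13 (1 rose) and macrophage markers rose in 5 of 6, with no call in the other marker lists. Their part in the differences was not tested.

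PyMT tumor sections over WT organoids compare tissue, culture and genotype at the same time, and these cannot be told apart. Of the 9 members 4 fell, where 6.05% of genes tested fell and 6.45% rose. Col17a1 fell 53.3-fold (log2 fold change -5.74, SE 1.48, adjusted p = 0.0239), Lama3 21.7-fold (-4.44, SE 1.13, adjusted p = 0.0229), Cdh3 13.9-fold (-3.79, SE 0.63, adjusted p = 0.00506) and Itga6 2.28-fold (-1.19, SE 0.31, adjusted p = 0.0250). In 8 members the sections lay below WT without overlap, against 23.1% of all genes, and in Itgb4 they lay above it (sections 232 to 267 CPM, WT 171 to 192 CPM), against 23.2%. Itgb4 was not called (0.45, SE 0.34, adjusted p = 0.384). Trp63 (-2.01, adjusted p = 0.259), Snai2 (-2.13, 0.146), Itgb1 (-0.62, 0.118) and Lamb3 (-1.77, 0.229) were not called.

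Leaving out the 2 libraries that stand apart, 7 members were lower, all but Trp63 (adjusted p = 0.0684) and Itgb4, where 12.9% of genes were called lower and 14.2% higher. Leaving out any 1 of the 6 libraries compared ended the calls of Lama3 (adjusted p 0.0508 to 0.0848) and Col17a1 (0.0526 to 0.0848). The Itga6 call was lost in 5 of these 6 fits (up to 0.0990), all but that without WT replicate 1, and the Cdh3 call was kept in all 6 (0.0150 to 0.0262). The median log2 fold change was -2.01 over the members and 0.03 over all genes.

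In PyMT sections 4 of 20 partners fell and none rose, led by Bcam (-1.59, adjusted p = 0.00935), while Plec (0.10, adjusted p = 0.864) and Dst (0.24, 0.760) were not called. Other integrins fell in 2 of 13 (Itga2 first, -2.07, adjusted p = 0.0383), with Itga3 at -0.13 (adjusted p = 0.864). Fermt1, the epithelial kindlin-1, was the 1 of 11 adaptors called (-2.24, adjusted p = 0.0135). Cdh2 (N-cadherin) was the 1 of 8 cadherins and catenins called (-2.73, adjusted p = 0.0301). Of 11 p63-linked genes 4 fell and none rose, and the smallest adjusted p was that of Trp73, the p53 family member p73, which averaged 0.103 CPM in sections, against 9.97 CPM in WT organoids (-6.60, adjusted p = 0.00883). Krt5 was at -5.07 (adjusted p = 0.0729) and Krt14 at -3.82 (0.202). With the 2 libraries left out, partners fell in 6 of 20, integrins in 2 of 13 (1 rose), adaptors in 4 of 11, cadherins and catenins in 2 of 8 (1 rose) and p63-linked genes in 8 of 11.

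Basal and myoepithelial markers fell in 5 of 12 and 1 rose (Egfr, 1.36, adjusted p = 0.0289), with a summed CPM of 756 to 798 in PyMT sections and 3157 to 3776 in WT organoids. Acta2 fell by 4.02 on the log2 scale (adjusted p = 0.00447). Fibroblast markers rose in 1 of 8 (Fap), with 1966 to 5967 CPM in PyMT sections and 450 to 823 CPM in WT organoids. Macrophage markers rose in 4 of 6, with 241 to 532 CPM in sections and 105 to 149 in WT. Keratinocyte markers fell in 3 of 6 (7.45 to 9.55 and 290 to 360 CPM), with Ivl at 0 in all 3 sections and Krt6a in replicate 3. Luminal markers fell in 3 of 13 (12738 to 17970 and 8079 to 9497 CPM). The largest part of the section sum was Csn3, which averaged 9667 CPM in sections, against 1531 CPM in WT organoids. Endothelial, adipocyte and skeletal muscle markers had no call, at 104 to 161, 42.4 to 95.7 and 1.44 to 598 CPM in sections, against 10.3 to 53.2, 8.52 to 22.4 and 43.9 to 198 CPM in WT organoids. Adipoq, Lep, Cidec and Myh4 were at 0 in replicate 3. Leaving the 2 libraries out, basal markers fell in 9 of 12 (1 rose), luminal in 4 of 13 (1 rose) and keratinocyte in 3 of 6, fibroblast markers rose in 3 of 8, endothelial in 3 of 6, macrophage in 5 of 6 and skeletal muscle in 1 of 5, and adipocyte markers had no call. Their part in the differences was not tested.

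Neu-NT tumor sections over WT organoids carry the same limit of design. Of the 9 members 3 fell, where 8.47% of genes fell and 10.5% rose. Col17a1 fell 154-fold (log2 fold change -7.27, SE 1.61, adjusted p = 0.00688), Lama3 17.2-fold (-4.11, SE 1.11, adjusted p = 0.0185) and Cdh3 12.0-fold (-3.59, SE 0.62, adjusted p = 0.00174). Snai2 had an adjusted p of 0.0564 (-2.83, SE 0.99) and Trp63 one of 0.135 (-2.63, SE 1.19). In 7 members the sections lay below WT without overlap, against 21.3% of all genes, and Itgb4 lay above it (sections 229 to 426 CPM, WT 171 to 192 CPM), against 19.4% of all genes. Itgb1 overlapped, at -0.04 (95% interval -0.59 to 0.51), and Itga6 was at -0.74 (adjusted p = 0.105).

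Without the 2 libraries that stand apart, of which Neu-NT replicate 3 belongs to this group, 6 members were lower and 1 higher, where 14.3% of genes were called lower and 14.7% higher. Lamb3 was then at -4.41 (adjusted p = 0.000433), against -1.60 (adjusted p = 0.259) with all libraries. Trp63 was at -4.89 (0.00401), Snai2 at -5.10 (0.000836), Lama3 at -6.60 (6.09e-06) and Col17a1 at -10.34 (8.07e-05), the last resting on 11 reads in the 2 sections. Itgb4 was the higher member (1.08, SE 0.28, adjusted p = 0.00942). Cdh3 stayed at -3.56. The Lama3 call was lost without Neu-NT replicate 1 (adjusted p = 0.0645) or replicate 2 (0.0587), while the Cdh3 and Col17a1 calls were kept when any 1 library was left out.

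Of the 20 partners 2 fell and 1 rose with all libraries. Cd151, a tetraspanin that binds laminin-receptor integrins, rose (0.84, adjusted p = 0.00477) and Lamc3 fell (-4.98, adjusted p = 0.00655). Dst was at 1.29 (adjusted p = 0.0582) and Plec at 0.04 (0.944). Other integrins fell in 2 of 13 and rose in 2. Itga9, a subunit that pairs with β1, averaged 42.0 CPM in Neu-NT sections and 5.51 CPM in WT organoids (2.93, adjusted p = 0.00383), and Itga2 was lower (-2.23, adjusted p = 0.0199). Itga3 was at 0.94 (adjusted p = 0.125). Adaptors rose in 3 of 11, led by Zyx (zyxin, 0.87, adjusted p = 0.0111). Of 8 cadherins and catenins 2 rose and 1 fell, led by Ctnnd1 (p120 catenin, 1.05, adjusted p = 0.00456) and Cdh2 (-4.53, adjusted p = 0.00233). The other rise was that of Jup, plakoglobin (3.16, adjusted p = 0.0125), which was at 0.47 (adjusted p = 0.131) without the 2 libraries. Of 11 p63-linked genes 4 fell, led by Trp73 (-6.67, adjusted p = 0.00360). In the fit without the 2 libraries, partners fell in 3 of 20 and rose in 7, integrins fell in 1 of 13 and rose in 3, adaptors fell in 1 of 11 and rose in 3, cadherins and catenins fell in 1 of 8 and rose in 2, and p63-linked genes fell in 6 of 11 and rose in 2.

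Krt5 and Krt14 were both far below the WT range in Neu-NT sections replicates 1 and 2, and in replicate 3 only Krt5 was. Krt5 had 0.0756, 0.225 and 26.4 CPM in Neu-NT sections, against 849, 954 and 780 CPM in WT organoids (-6.61, adjusted p = 0.0266, or -12.49 and 0.000304 without the 2 libraries). The first 2 Krt5 values rest on few reads, and so does the fold change without the 2 libraries. Krt14 had 0.907, 3.20 and 1453 CPM, against 1173, 795 and 610 CPM in WT organoids (-0.82, adjusted p = 0.781, or -8.71 and 0.00108 without the 2 libraries). Basal and myoepithelial markers fell in 6 of 12, with summed CPM of 1341, 942 and 3221 in Neu-NT sections and 3157 to 3776 in WT organoids. Macrophage markers rose in 5 of 6 (457 to 709 CPM in sections, 105 to 149 in WT), fibroblast markers in 1 of 8 (295 to 2747 and 450 to 823 CPM), and luminal markers fell in 4 of 13 and rose in 1 (15062 to 31729 and 8079 to 9497 CPM). The luminal marker that rose was Csn3. It was the largest part of the section sum, averaging 15541 CPM in sections, against 1531 CPM in WT organoids. Keratinocyte markers fell in 1 of 6 (13.8 to 128 and 290 to 360 CPM). Endothelial, adipocyte and skeletal muscle markers had no call, at 75.2 to 120, 9.10 to 51.1 and 1.49 to 9.53 CPM in sections, against 10.3 to 53.2, 8.52 to 22.4 and 43.9 to 198 CPM in WT organoids. Krt6a was at 0 in replicate 1, and Pgr, Adipoq, Lep, Cidec and Myh4 in replicate 2. The marker counts without the 2 libraries were 8 lower and 1 higher of 12 basal, 5 lower and 1 higher of 13 luminal, 2 lower of 6 keratinocyte, 5 higher of 6 macrophage, 1 higher of 8 fibroblast and 1 higher of 6 endothelial markers, with none of the adipocyte or skeletal muscle markers. Their part in the differences was not tested.

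PyMT organoids at day 6 over day 0 ask what culture changes within 1 genotype. With all libraries no member was called, where 0.166% of genes were called higher and 0.460% lower, and all 9 log2 fold changes were positive. By edgeR 5 members had an unadjusted p under 0.05, and DESeq2 called 2, Cdh3 and Lama3. In every member the libraries overlapped, while 7.65% of all genes lay higher and 8.74% lower without overlap, and the library labelled day 6 replicate 3 lay within or below the day 0 range in all 9. When both libraries that stand apart were left out, 8 members rose, where 9.46% of genes were called higher and 9.36% lower. Col17a1 rose by 4.43 log2 units (SE 0.77, adjusted p = 0.00182), Lama3 by more than any member but Col17a1 (SE 0.40, adjusted p = 5.93e-05), Snai2 by 2.64 (SE 0.68, adjusted p = 0.0166), Cdh3 by 2.61 (SE 0.41, adjusted p = 0.000941) and Lamb3 by 2.09 (SE 0.56, adjusted p = 0.0198). Smaller rises were those of Itga6 (1.05, adjusted p = 0.00695), Itgb4 (0.95, 0.0276) and Itgb1 (0.71, 0.0495). Trp63, at 2.21 (SE 0.83), was not called (adjusted p = 0.0770). The day 6 group then holds 2 libraries.

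With all libraries, no gene of the 20 partners, 13 integrins, 11 adaptors, 8 cadherins and catenins or 11 p63-linked genes was called. Without the 2 libraries, partners rose in 6 of 20 and fell in 2, integrins rose in 3 of 13 and fell in 3, and p63-linked genes rose in 8 of 11. Itga3 was at 1.49 (adjusted p = 0.116) with all libraries and at 1.95 (adjusted p = 0.000182) without the 2, Plec at 0.96 (0.167) and 1.22 (0.0205), and Dst at -0.04 in both. Krt5 was at 3.83 (0.297) and 4.45 (0.0106), and Krt14 at 3.94 (0.361) and 4.56 (0.0112). Without the 2 libraries adaptors rose in 4 of 11 and fell in 1, and cadherins and catenins rose in 3 of 8 and fell in 1.

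No marker list had a call with all libraries. Without the 2 libraries, stromal lists were lower at day 6: fibroblast markers fell in 4 of 8, endothelial in 6 of 6, macrophage in 5 of 6 and adipocyte in 1 of 5, and basal markers rose in 3 of 12 and fell in 1. Fibroblast markers summed to 65.3 and 52.0 CPM in day 6 replicates 1 and 2, to 2750 CPM in the library labelled replicate 3, and to 714 to 981 CPM at day 0. Endothelial markers summed to 4.94, 4.99 and 147 CPM at day 6 and 97.0 to 201 CPM at day 0. Basal markers summed to 1545, 7445 and 810 CPM at day 6 and 581 to 766 CPM at day 0, and luminal markers (1 up and 2 down of 13 without the 2 libraries) to 8516, 4919 and 24451 CPM and 12872 to 17190 CPM. Keratinocyte markers summed to 149, 1927 and 9.74 CPM at day 6 and 8.02 to 26.7 CPM at day 0. Day 6 replicate 2, at 1927 CPM, was also the highest of all 20 libraries for Trp63, Snai2 and Col17a1. Keratinocyte markers rose in 3 of 6 without the 2 libraries, led by Dsg3 (5.97, adjusted p = 0.00207), and skeletal muscle markers had no call. Their part in the member values was not tested.

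PyMT organoids at day 0 over PyMT tumor sections set freshly prepared organoids over the tissue. No member was called with all libraries, where 0.428% of genes were called higher and 0.0160% lower, or without the 2 that stand apart (0.914% and 0.393%). No member had an unadjusted p under 0.05 in edgeR, and DESeq2 called none. Only Itga6 did not overlap, with 463, 425 and 426 CPM in day 0 organoids and 328, 328 and 387 CPM in sections (0.33, SE 0.31), against 7.60% of all genes (10.6% lay lower). The 95% intervals were -2.02 to 2.85 for Trp63, -1.59 to 2.74 for Lama3, -1.57 to 3.84 for Col17a1 and -0.54 to 0.56 for Itgb1, so that differences of 2 log2 units lie inside most of them. Itga3 was at -0.03, Plec at -0.13, Dst at -0.33, Krt5 at 0.95 and Krt14 at 0.89, and no gene of any partner or marker list was called with all libraries. Without the 2, Sfn (14-3-3σ), a p63-linked gene, was higher (2.59, adjusted p = 0.00412). Fibroblast markers summed to 714 to 981 CPM in day 0 organoids and 1966 to 5967 CPM in sections.

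**Figure D4:**
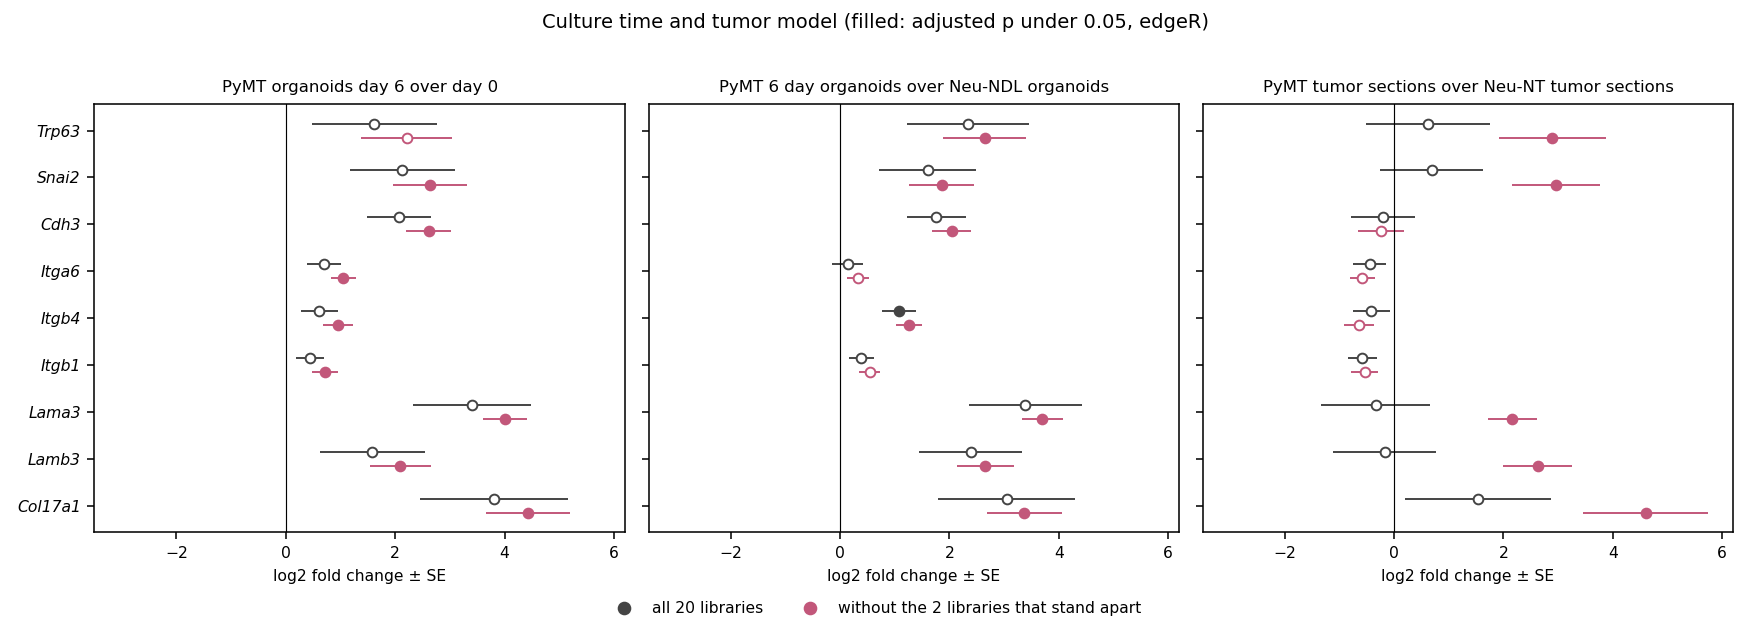
Log2 fold changes with their SE for the 9 genes in PyMT organoids at day 6 over day 0, cultured PyMT over Neu-NDL organoids, and PyMT over Neu-NT tumor sections, with all 20 libraries (grey) and without the 2 that stand apart (pink), filled where the adjusted p is under 0.05. With all libraries 1 point is filled, Itgb4 over Neu-NDL (1.08), and without the 2 libraries 8, 7 and 5 are.

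Cultured PyMT over Neu-NDL organoids compared the tumor models at 6 days. Itgb4 rose 2.12-fold (log2 fold change 1.08, SE 0.31, adjusted p = 0.0478), with 252 to 659 CPM in 5 PyMT libraries and 189 to 258 CPM in 3 Neu-NDL libraries. It was the 1 member called, where 2.42% of genes were called higher and 4.70% lower. Blocking on the replicate number gave an adjusted p of 0.0655, and leaving out any 1 library other than the one labelled day 6 replicate 3 also ended the call (up to 0.141). Lama3 was at 3.39 (SE 1.03, adjusted p = 0.0569), Cdh3 at 1.76 (SE 0.54, 0.0592), Col17a1 at 3.05 (SE 1.25, 0.139), Lamb3 at 2.39 (SE 0.94, 0.124), Trp63 at 2.34 (SE 1.11, 0.201) and Snai2 at 1.60 (SE 0.88, 0.268).

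With the 2 libraries that stand apart left out, these 6 and Itgb4 were called higher, 7 of 9, where 10.8% of genes were called higher and 13.5% lower. Lama3 was then at 3.70 (SE 0.37, adjusted p = 2.02e-05), Col17a1 at 3.37 (0.00398), Lamb3 at 2.66 (0.00312) and Trp63 at 2.65 (0.0228). Itga6 (0.33, adjusted p = 0.240) and Itgb1 (0.54, adjusted p = 0.0627) were not called. With all libraries the groups overlapped in every member, while 6.36% of all genes lay higher and 6.68% lower without overlap.

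Among partners 1 of 20 rose, Bcam (1.10, adjusted p = 0.0347), and 1 fell, Lamb2, the laminin β2 chain (-0.81, adjusted p = 0.0138). Integrins rose in 2 of 13 and fell in 1. Itga3 was higher (1.70, SE 0.40, adjusted p = 0.0226), Itga2 too (2.41, adjusted p = 0.0260), and Itga9 lower (-1.84, adjusted p = 0.0371). Of 11 adaptors 1 fell, Tns1 (tensin 1, -2.15, adjusted p = 0.0401), and of 8 cadherins and catenins 1 rose, Cdh1 (E-cadherin, 0.85, adjusted p = 0.0466). Of 11 p63-linked genes 4 rose, Itga3 among them, and none fell. Krt5 (2.98, adjusted p = 0.243), Krt14 (3.30, 0.274), Plec (0.39, 0.429) and Dst (-1.20, 0.0781) were not called. Macrophage markers fell in 4 of 6, with 81.3 to 203 CPM in PyMT and 146 to 437 CPM in Neu-NDL organoids, and luminal markers in 1 of 13 (4919 to 24451 and 9755 to 16571 CPM). Basal (810 to 7445 and 584 to 1407 CPM), fibroblast (52.0 to 2750 and 155 to 2898 CPM), endothelial, adipocyte, skeletal muscle and keratinocyte markers had no call with all libraries. In the fit without the 2 libraries, partners fell in 4 of 20 and rose in 4, integrins fell in 3 of 13 and rose in 3, adaptors fell in 1 of 11 and rose in 3, cadherins and catenins fell in 2 of 8 and rose in 3, and p63-linked genes rose in 10 of 11. That fit also called 7 of 8 fibroblast, 3 of 6 endothelial, 5 of 6 macrophage and 1 of 5 adipocyte markers lower, 2 of 13 luminal markers lower and 2 higher, 1 of 12 basal markers lower and 3 higher, and 2 of 6 keratinocyte markers higher. Their part in the differences was not tested.

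PyMT over Neu-NT tumor sections compared the models as tissue. With all libraries no member was called, where 4.57% of genes were called higher and 5.13% lower, edgeR's unadjusted p was under 0.05 for 1 member, and DESeq2 called none. Itga6 and Itgb1 lay lower in PyMT sections without overlap (PyMT sections 328 to 387 and 477 to 531 CPM, Neu-NT sections 397 to 558 and 687 to 816 CPM), against 12.9% of genes, and were at -0.45 (adjusted p = 0.377) and -0.58 (adjusted p = 0.162). Without the 2 libraries that stand apart, 5 members were higher, where 11.7% of genes were called higher and 11.6% lower. They were Col17a1 (4.60, SE 1.14, adjusted p = 0.0102), Snai2 (2.96, SE 0.81, 0.0174), Trp63 (2.89, SE 0.98, 0.0471), Lamb3 (2.63, SE 0.63, 0.00868) and Lama3 (2.16, SE 0.45, 0.00365). With all libraries Lama3 (-0.34) and Lamb3 (-0.17) had the opposite sign, so that Neu-NT section replicate 3 decides the direction of both. Cdh3 was at -0.20 and -0.24.

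Of the 20 partners 4 fell in PyMT sections over Neu-NT sections, and none rose. Itga9 was the 1 of 13 integrins called (-2.26, adjusted p = 0.0217), and Itga3 was at -1.08 (adjusted p = 0.114), Plec at 0.06 (0.929) and Dst at -1.05 (0.153). Adaptors fell in 2 of 11, led by Bcar1 (p130Cas, -1.47, adjusted p = 0.00354). Jup was the 1 of 8 cadherins and catenins called (-3.17, adjusted p = 0.0211), and was at -0.48 (adjusted p = 0.133) without the 2 libraries. No p63-linked gene of 11 was called, with Krt5 at 1.53 and Krt14 at -3.00 with all libraries, and at 7.42 (adjusted p = 0.00578) and 4.90 (0.0160) without the 2. The Krt5 fold change without the 2 rests on few reads in Neu-NT sections. The fit without those libraries called 7 of 20 partners, 3 of 13 integrins, 5 of 11 adaptors and 3 of 8 cadherins and catenins lower and none higher, and 2 of 11 p63-linked genes lower and 2 higher.

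Basal markers rose in 1 of 12 (756 to 798 CPM in PyMT sections, 942 to 3221 in Neu-NT sections). Luminal markers rose in 1 of 13 and fell in 1 (12738 to 17970 and 15062 to 31729 CPM), and skeletal muscle markers rose in 1 of 5 (Ckm), with 598 summed CPM in PyMT section replicate 2 and under 10 CPM in the other 5 sections. Csn3, the largest part of the luminal sums, averaged 9667 CPM in PyMT and 15541 CPM in Neu-NT sections. Fibroblast (1966 to 5967 and 295 to 2747 CPM), endothelial, macrophage (241 to 532 and 457 to 709 CPM), adipocyte and keratinocyte markers had no call. Calls without the 2 libraries were 3 higher of 12 basal, 1 lower and 4 higher of 13 luminal, 1 higher of 6 macrophage, 2 higher of 5 skeletal muscle and 1 lower of 6 keratinocyte markers. Their part in the differences was not tested.

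Across the 20 libraries, log2 CPM of Trp63, Snai2, Lama3, Lamb3 and Col17a1 moved together, with Pearson's r of 0.84 to 0.96 between them. Itgb4 had r between -0.10 and 0.34 with each other member. The genes outside the list whose log2 CPM was most like Trp63 were Anxa8, Bnc1, the lincRNA 4631405K08Rik, Trim29 and Padi3, each at r = 0.95. Those most like Lamb3 were Fat2 (0.95), Klhl5, Ptges, Lrrc42 and Tmem246 (0.93 each). The libraries of a group share genotype, tissue and culture, and these r are descriptions of 20 libraries that fall into groups.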

How the data were processed

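Polyadenylated RNA libraries (TRIzol, TruSeq, per the labels' protocols) were deposited as raw read counts per gene. Per the submitters' processing notes, CASAVA, FastQC, STAR, HTSeq and DESeq2 were used with the mm10 build, and versions, annotation release and strand setting are not given in the sources used here. The deposited counts of 20 libraries were tested with edgeR 4.0.16 in R 4.3.3: TMM scaling, the filterByExpr filter, and a robust quasi-likelihood fit with 1 mean per group (13 residual degrees of freedom, common dispersion 0.193), with Benjamini-Hochberg adjustment over all genes tested. SEs are the log2 fold change over the root of its F statistic, and intervals are at 95%. log2 CPM used a prior count of 2. The fit was run on simulated counts in which no library was made to stand apart from its group, and the outcome is not reported here. The members and gene lists were chosen with earlier results of these data known. Named genes are the members, the laminin, hemidesmosome and keratin partners named in every comparison, and the list genes with the smallest adjusted p in each direction. Some genes under this rule are not reported here. Alternatives were DESeq2 1.42.0, RLE scaling, no filter, the replicate number as a block, a fit of the compared libraries alone, each library left out, and the 2 libraries that stand apart left out. Replicate numbers were taken to pair samples only for PyMT organoids at day 6 and day 0, where deviations of same-numbered libraries correlated at 0.287, 0.428 and 0.317. The sample titles do not state this pairing. The value of 0.317 involves the library labelled day 6 replicate 3. In the other comparisons such values ran from -0.226 to 0.275. The highest was that of number 2 in PyMT day 6 and Neu-NDL organoids, which differ in genotype.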

Additional observations from a re-analysis of the deposited data

Results flagged for a closer look

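Among the 5 cultured PyMT organoid libraries, the library labelled day 6 replicate 3 stood far below the others on the log2 CPM scale in 5 members. Its gap to the nearest library, as a share of the group's range, was 0.866 for Lama3, 0.832 for Col17a1, 0.733 for Lamb3, 0.723 for Trp63 and 0.719 for Cdh3, against Dixon's critical value of 0.71. Chance alone passes that value in about 1 in 20 groups, and the 5 values come from the same library.

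The effect over WT organoids differed between cultured PyMT and Neu-NDL organoids for Itgb4, by 1.08 on the log2 scale (edgeR adjusted p = 0.0478). WT organoids cancel in this difference, so it is the cultured PyMT over Neu-NDL call given above and not a second result. That call ended with the replicate block (adjusted p = 0.0655), no filter (0.0691), RLE scaling (0.0505), only the libraries compared (0.175), day 6 alone (0.108) and undated alone (0.105), and when any 1 of the 8 libraries other than the one labelled day 6 replicate 3 was left out (0.0800 to 0.141). It held with DESeq2 (0.0118) and without the 2 libraries that stand apart (0.00275).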

How the results depend on the processing

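With the 2 libraries that stand apart left out, members called were 5 for Neu-NDL over WT organoids, 7 for PyMT sections over WT, 7 for Neu-NT sections over WT, 8 for PyMT day 6 over day 0, 7 for PyMT over Neu-NDL organoids and 5 for PyMT over Neu-NT sections. DESeq2 called 3, 2 and 4 members for Neu-NDL over WT, day 6 over day 0 and PyMT over Neu-NDL. With only the libraries compared, the count was 0 for PyMT organoids over WT, 3 for Neu-NDL over WT, 8 for PyMT sections over WT and 0 for PyMT over Neu-NDL. Without the filter it was 2 for PyMT sections over WT and 0 for PyMT over Neu-NDL. It was 0 for PyMT over WT with undated libraries alone, and 0 for PyMT over Neu-NDL with day 6 alone or RLE scaling.

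With 1 library left out, the counts ranged over 0 to 1 for PyMT organoids over WT, 0 to 1 for Neu-NDL over WT, 1 to 2 for PyMT sections over WT, 2 to 7 for Neu-NT sections over WT, 0 to 4 for day 6 over day 0, 0 to 4 for PyMT over Neu-NDL and 0 to 2 for PyMT over Neu-NT sections, and stayed at 0 for day 0 over sections. Lama3 and Lamb3 in PyMT over Neu-NT sections reversed to 2.16 and 2.63 without the 2 libraries, and Lamb3 ranged from -0.72 to 2.65 with 1 library left out, the highest being without Neu-NT replicate 3. The cause was not tested.

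With the replicate number as a block, members called were 0 for PyMT over Neu-NDL organoids (Itgb4 at 0.96, adjusted p = 0.0655) and the block changed no other count of members. For day 6 over day 0, where same numbers were taken to pair samples, it called 93 genes and 0 members, against 117 and 0 without it. The sample titles give no pairing. The block was fitted over all 7 groups, and outside those at day 6 and day 0 the numbers are shared names only. It is therefore not a paired test of day 6 and day 0, and does not show what pairing changes.

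Over all genes, settings other than leaving out 1 library called 88 to 3071 genes for PyMT organoids over WT (728 in the reported fit), 616 to 2699 for Neu-NDL over WT (846), 1583 to 5024 for PyMT sections over WT (2337), 2859 to 5384 for Neu-NT sections over WT (3555), 4 to 3499 for day 6 over day 0 (117), 74 to 243 for day 0 over sections (83), 11 to 4514 for PyMT over Neu-NDL (1331) and 327 to 4317 for PyMT over Neu-NT sections (1814). Values that rest on few reads, such as Col17a1 in Neu-NT sections, are limited by depth.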
